A study of Mus musculus with 4 samples.

Results

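Histone cluster genes were taken as all rows of the count tables whose symbol begins with Hist1h, Hist2h, Hist3h or Hist4h. This gave 68 of the 23420 gene symbols: 6 genes of linker histone H1, 18 of H2A, 19 of H2B, 12 of H3 and 13 of H4. Of these, 67 are annotated as protein-coding and 1, Hist3h2bb-ps, as a processed pseudogene. They lie at 4 loci of the mouse genome (GENCODE M21, GRCm38): 54 genes on chromosome 13, 10 on chromosome 3, 3 on chromosome 11 and 1, Hist4h4, on chromosome 6.

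RNA was sequenced from wild-type E14 mouse embryonic stem cells, grown without feeder cells and with leukemia inhibitory factor, in 2 control libraries sampled at 0 h and 2 libraries from cells given all-trans retinoic acid (ATRA) at 1 µM for 24 h. ATRA is the ligand of the retinoic acid receptors. The labels name dimethyl sulfoxide as vehicle without saying whether the 0 h cells received it, and the comparison joins the effect of ATRA with that of 24 h in culture, which cannot be told apart. All samples come from a single cell line, and no label states that replicates were separate cultures, so p-values measure the spread between these libraries only, which may be technical. The protocols also describe embryoid bodies and neural differentiation, whereas each of the 4 samples is labelled as embryonic stem cells.

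Nucleosomes hold DNA wound around an octamer of H2A, H2B, H3 and H4, and H1 binds the linker between them. Cluster genes supply the bulk of these proteins during S phase, when new DNA must be packed, and stem cells, with their short G1, spend much of their cycle there. Their mRNAs are unusual: the genes mostly lack introns, and the transcript ends just past a conserved stem-loop in the 3′ untranslated region, bound by the stem-loop binding protein, instead of carrying a poly(A) tail. Some cluster genes also give longer polyadenylated transcripts that run past the stem-loop, best known from differentiating and non-dividing cells. The labels give total RNA and the standard Illumina library procedure, and do not say whether poly(A) RNA was selected.

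The stem-loops are shown first because the annotated distance between this element and the transcript end was used to group the genes. A search of all annotated transcripts on the sense strand for a 16-base pattern (GG, any 2 bases, CTTTT, any base, AG, any 2 bases, CC) found it in 44 of the 68 genes (64.7%) and in 32 of 22986 other genes (0.139%). In the 43 genes where the matching transcript has a single exon, the stem-loop starts 21 to 58 bases after the stop codon, with a median of 31. A missing match says only that these letters are not in the annotated transcript; several of the other 24 transcripts are annotated as the coding sequence with little flank. The lines below give the element of 6 genes with 5 bases on either side, as DNA letters from the GENCODE M21 transcripts, with the 2 arms of the stem in capitals and the loop in lower case.
Hist1h1c (H1), chr13:23739512-23739527, plus strand: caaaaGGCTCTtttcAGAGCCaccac
Hist3h2a (H2A), chr11:58955172-58955187, plus strand: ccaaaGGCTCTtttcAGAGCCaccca
Hist3h2ba (H2B), chr11:58949349-58949364, plus strand: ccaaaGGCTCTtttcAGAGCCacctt
Hist2h3c1 (H3), chr3:96247327-96247342, plus strand: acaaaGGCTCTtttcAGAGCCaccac
Hist1h4i (H4), chr13:22040966-22040981, minus strand: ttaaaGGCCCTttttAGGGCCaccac
Hist1h4c (H4), chr13:23698089-23698104, minus strand: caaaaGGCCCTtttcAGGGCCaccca
The coordinates are those of the 16 bases from the first to the last capital.

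The stem differed between H4 and the other types. All 33 matched genes of H1, H2A, H2B and H3 shared 1 pair of arms, as 26 copies of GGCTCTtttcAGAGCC, 6 of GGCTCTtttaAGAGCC and 1 of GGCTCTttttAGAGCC. None of the 11 matched H4 genes had it: 7 carried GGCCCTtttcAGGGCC, 2 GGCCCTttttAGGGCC and 2 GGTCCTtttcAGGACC. Both arms change together, so that the pairing is kept. In 22 genes the annotated transcript ended within 100 bases of the stem-loop, and in 22 it ran further, by 1643 bases in Hist3h2a, 1167 in Hist2h3c1, 840 in Hist1h1c, 330 in Hist1h4i and 169 in Hist3h2ba. The authors' annotation is not given in the sources used here and may place these ends elsewhere.

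Counts in genes ranged from 21484812 to 31005634 in the control libraries and from 11086233 to 13337972 with ATRA, so that 3 counts, the upper limit a count of 0 allows, stand for 0.0940 to 0.309 CPM, counts scaled to a common library total after TMM normalization, and cover counting error only. All 10 stem cell markers checked were present, with summed levels of 4455 to 4468 CPM in the controls and 2637 to 2683 CPM with ATRA. The 8 fibroblast or feeder markers summed to 155.6 to 216.8 CPM and 109.0 to 109.6 CPM, and the 5 markers of the two-cell-like state to 62.7 to 69.3 CPM and 250.0 to 399.9 CPM. Markers of trophectoderm summed to 455.7 to 468.6 CPM and 123.3 to 257.1 CPM, of neurons to 463.5 to 493.9 CPM and 250.8 to 281.1 CPM, of neural progenitors to 226.9 to 269.7 CPM and 279.4 to 388.6 CPM, and of primitive endoderm to 91.2 to 94.2 CPM and 84.3 to 95.3 CPM, in controls and ATRA; no gene of these lists was at 0 in all 4 libraries. Their part in the results was not tested, and in bulk RNA fewer cells of a type and less RNA per cell cannot be told apart. The treatment label held: 7 of 8 retinoic acid response genes rose and 0 fell, against 0.435% and 0.168% of all tested genes. Rarb, a receptor gene and direct target, rose from 0.174 ± 0.0688 to 38.7 ± 6.71 CPM (SD, n = 2 each, edgeR adjusted p = 0.0229).

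Differences between libraries followed transcript GC content. The ATRA over control log2 fold change had a median of 1.03 in the decile of lowest GC content and −1.73 in that of highest (Spearman's rho −0.75 across genes, which are not independent replicates). ATRA replicate 2 also differed in this way from ATRA replicate 1. Over the 14145 of 14256 tested genes with a GC value, its level relative to ATRA replicate 1 had a median log2 ratio of 0.86 in the decile of lowest GC content and −1.33 in that of highest, against −0.01 and −0.31 for control replicate 2 over control replicate 1. Histone cluster genes are GC-rich, with a median of 57.8% (range 39.8% to 70.0%) against 50.2% for the genes tested, so the main results below are also given after a per-library correction for GC content. The correction removes any difference that follows GC content, technical or not.

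**Figure D1:**
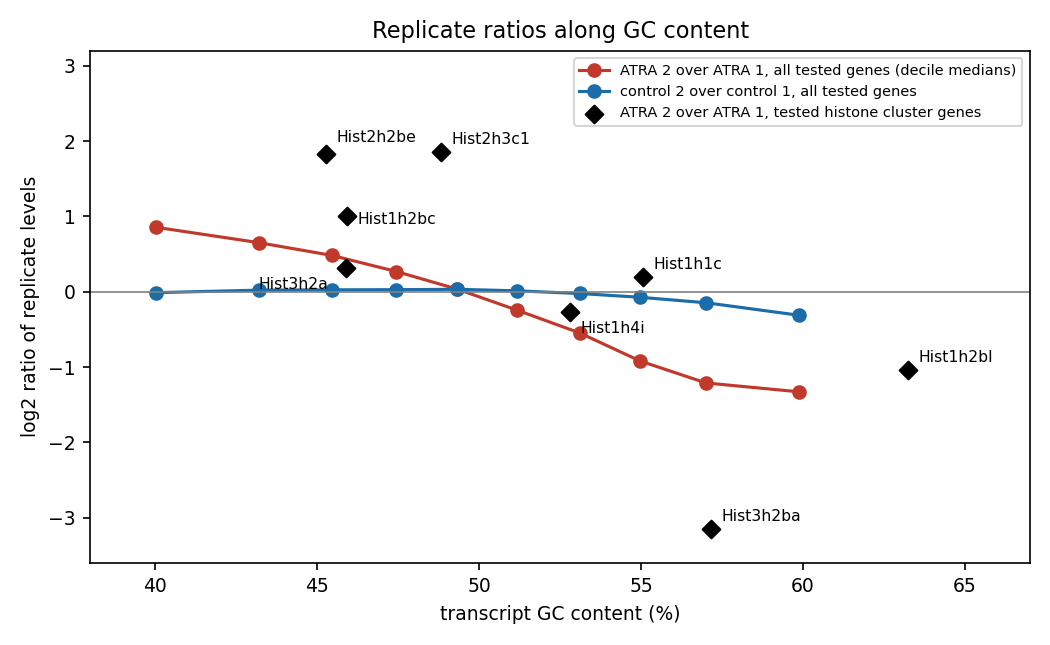
Log2 ratio of ATRA replicate 2 over ATRA replicate 1 (red line) and of control replicate 2 over control replicate 1 (blue line) against transcript GC content in percent, as medians of 10 GC deciles of all tested genes; black diamonds are the 8 tested histone cluster genes (ATRA replicates, with 0.5 counts added). The red line falls from 0.86 to −1.33 while the blue one stays between 0.03 and −0.31; Hist1h1c, Hist2h2be, Hist2h3c1 and Hist1h2bc lie above the red line and Hist3h2ba below it.

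Transcripts of the histone clusters were scarce in every library. The 68 genes together had 741 and 413 counts in control replicates 1 and 2 and 216 and 211 with ATRA, which is 23.2, 18.4, 15.3 and 21.8 CPM, and the groups overlapped. For comparison per transcript length, the H3 replacement variant gene H3f3b alone had a mean of 394 CPM per kilobase over the 4 libraries, against 3.42 for Hist1h1c, the highest of the 68. The median over the 68 genes was 0.0888 CPM per kilobase. No read was counted for 8 genes (Hist1h2ap, Hist1h2bq, Hist1h2br, Hist1h3i, Hist1h4m, Hist2h2aa1, Hist2h2ab and Hist2h2ac), and 36 had between 1 and 9 counts in all. In the ATRA libraries 33 genes were at 0, against 8 in the controls, which were sequenced more deeply.

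Near-identical copies limit these counts. In 32 of the 68 genes fewer than 50% of the 50-base windows of the transcript are found in no other annotated gene, and in 30 where genes overlapping the same locus are left aside, with a median share before that of 27.0% for H2A, 38.02% for H3, 54.7% for H2B, 60.5% for H4 and 98.9% for H1. The files list 0 reads with more than 1 alignment, and how such reads were handled is not given in the sources used here. Further, 24 genes overlap another annotated gene, where reads cannot be assigned with certainty without strand.

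**Figure D2:**
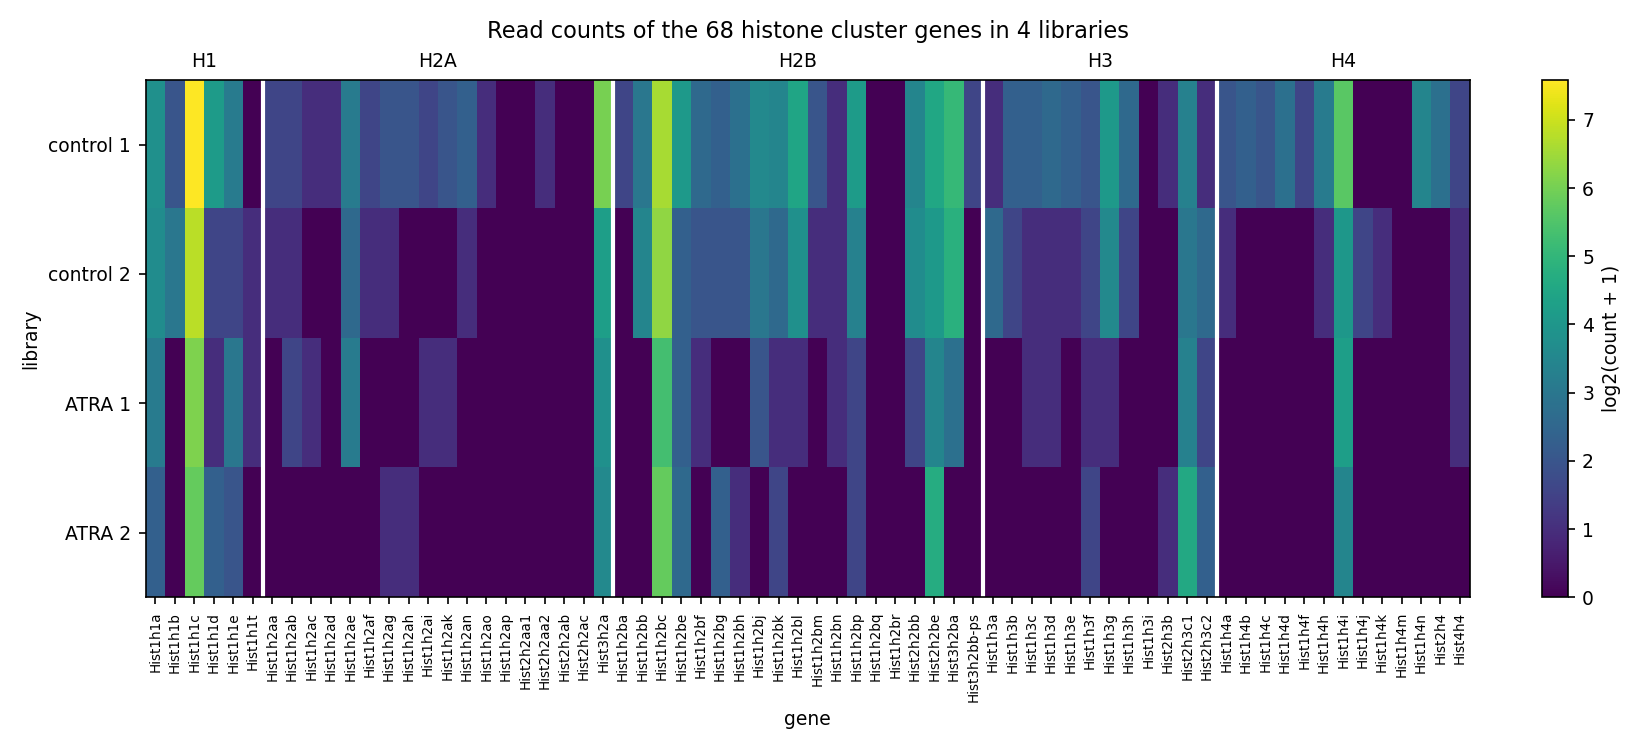
Heat map of log2(count + 1) for the 68 histone cluster genes (columns, grouped by histone type) in the 4 libraries (rows). Signal is concentrated in Hist1h1c, Hist1h2bc, Hist3h2a and Hist1h4i, and most other columns are at or near 0, more so in the ATRA libraries.

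Few genes carried most of the reads. The 8 that passed the count filter of the test held 70.3% of all 1581 histone cluster counts, and Hist1h1c alone, a somatic H1 gene, 424 of them. Genes annotated past the stem-loop made up 57.4% of the counts, those ending at it 9.80%, and those without a match 32.8%. In the last class stand Hist1h2bc, whose annotated transcript is spliced, and Hist2h2be, with a transcript of 2620 bases. Per kilobase the medians of the 3 classes were 0.0772, 0.0910 and 0.0905 CPM, in the order extended, ending at the stem-loop and no match. The highest values were 3.42, 0.516 and 3.21 CPM per kilobase. Whether transcript length accounts for the shares of counts was not tested. The 5 highest genes per kilobase were Hist1h1c (3.42), Hist1h2bc (3.21), Hist1h4i (1.55), Hist3h2ba (1.08) and Hist1h2bl (0.858).

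None of the 8 tested genes passed the test. In edgeR's quasi-likelihood test 0 rose and 0 fell at an adjusted p under 0.05, against 0.435% of all tested genes that rose and 0.168% that fell. At an unadjusted p under 0.05, 1 was higher (Hist2h3c1) and 1 lower (Hist1h2bl), where 18.2% and 21.9% of all genes were. Over all genes 0.603% were called in either direction. DESeq2 also called 0 of the 8 (30.5% of all genes), and after GC correction edgeR called 0, where 16.7% of all genes were called, 8.84% higher and 7.83% lower. At an unadjusted p under 0.05 the corrected fit held 1 of the 8, against 38.2% of all genes. With the replicate number as a block, which the labels do not show to pair the libraries, Hist2h3c1 rose and Hist1h2bl and Hist3h2ba fell, where 29.5% of all genes were called, 8.68% higher and 20.9% lower. The median log2 fold change of the 8 was −0.01, beside −0.02 over all genes, and 0.16 beside 0.02 after correction. Hist1h2bl and Hist3h2ba passed the filter through the control libraries alone and Hist2h3c1 through the ATRA libraries alone, so these had to differ between groups. The groups of these 3 genes did not overlap, 1 higher and 2 lower, and those of the other 5 did; over all genes tested 40.0% were higher and 41.5% lower without overlap. Without ATRA replicate 2, 0 of 17 tested genes were called (52.1% of all genes); without ATRA replicate 1, 3 of 15 rose (Hist1h2bc, Hist2h2be and Hist2h3c1) and 3 fell (Hist1h2bl, Hist3h2ba and Hist1h3g), where 73.4% of all genes were called, 35.0% higher and 38.5% lower. With that library left out and GC corrected, Hist1h1c and Hist2h3c1 rose (25.7% of all genes rose and 49.4% were called).

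**Figure D3:**
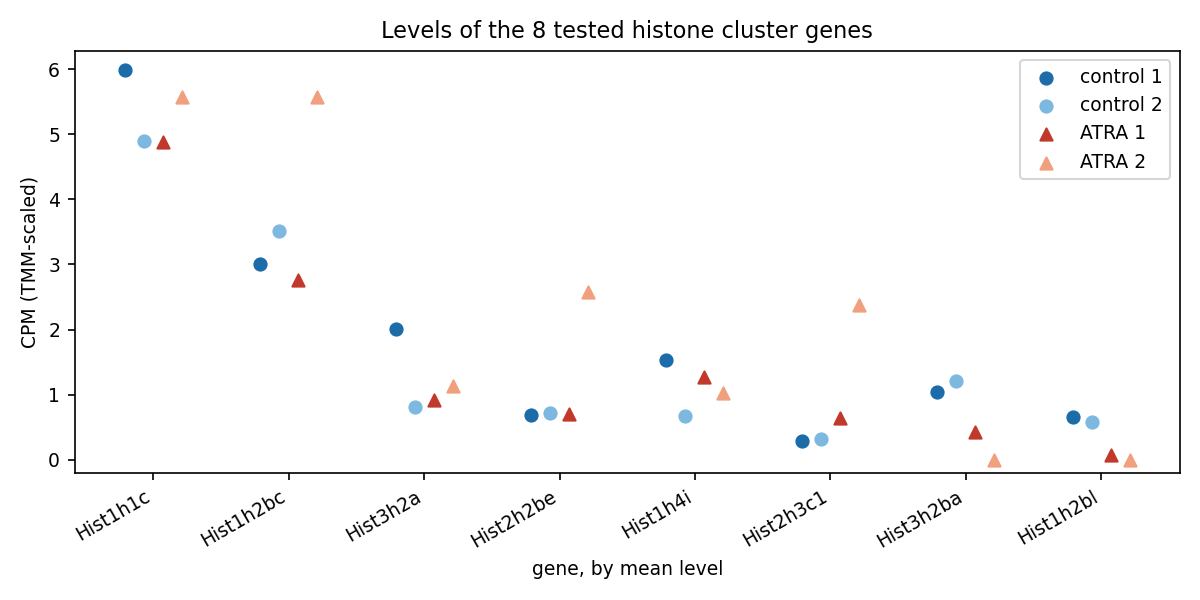
CPM (scaled by TMM library size) of the 8 tested histone cluster genes in each library, with circles for the 2 controls and triangles for the 2 ATRA libraries. ATRA replicate 2 is the highest library for Hist1h2bc, Hist2h2be and Hist2h3c1 and is at 0 for Hist3h2ba and Hist1h2bl.

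Of the H1 genes, which encode the linker histones, only Hist1h1c reached the filter (chromosome 13 from 23738808 to 23740367, plus strand, 1 exon). It had 5.99 and 4.90 CPM in the controls and 4.88 and 5.57 CPM with ATRA. The groups overlapped, and its log2 fold change was −0.06 ± 0.35 (SE; edgeR adjusted p = 0.896). After GC correction the libraries stood at 4.05 and 3.50 against 5.09 and 11.03 CPM, a log2 fold change of 1.01 ± 0.40 with an adjusted p of 0.132 in edgeR. Hist1h1a, Hist1h1b, Hist1h1d and Hist1h1e had between 10 and 37 counts over the 4 libraries. Hist1h1t, the testis-specific H1, had 1 count in control replicate 2 and 1 in ATRA replicate 1. All 6 together summed to 7.27, 5.97, 6.08 and 6.70 CPM in the order control 1, control 2, ATRA 1 and ATRA 2, with overlapping groups.

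Of 18 H2A genes, Hist3h2a alone was tested (chromosome 11 from 58954685 to 58956830, plus strand). Its levels were 2.01 and 0.802 CPM in the controls and 0.919 and 1.13 CPM with ATRA. Control replicate 1 was the high library, and both ATRA libraries lay between the controls. The log2 fold change was −0.48 ± 0.60 (edgeR adjusted p = 0.543), and −0.99 ± 0.57 after GC correction (adjusted p = 0.254). Without control replicate 1 it was 0.34. Trim17 overlaps this gene on the same strand in the annotation. The other 17 H2A genes shared 33, 10, 13 and 2 counts in the order control 1, control 2, ATRA 1 and ATRA 2, and Hist1h2aa, the testis H2A, had 3, all in the controls.

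The H2B genes summed to 8.34 and 8.60 CPM in the controls and 4.95 and 9.59 CPM with ATRA, the highest of the 5 types in each library but ATRA replicate 1, where H1 was higher; after GC correction H1 was higher in both ATRA libraries. Of the H2B genes, 4 were tested. Hist1h2bc (chromosome 13 from 23684199 to 23692908, plus strand, 2 exons) had 3.01 and 3.52 CPM in the controls and 2.76 and 5.57 CPM with ATRA. The ATRA libraries lay on either side of the controls, and the fitted log2 value was 0.34 ± 0.46 (edgeR adjusted p = 0.582; −0.20 after GC correction). Hist2h2be (chromosome 3 from 96221119 to 96223738, plus strand) had 0.690 and 0.713 CPM in the controls, 0.707 CPM in ATRA replicate 1 and 2.58 CPM in ATRA replicate 2. A single library was thus high, and the log2 fold change of 1.17 ± 0.69 (edgeR adjusted p = 0.229) was 0.53 after GC correction and 0.03 without ATRA replicate 2. It was 1.86 without ATRA replicate 1.

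The other 2 tested H2B genes were lower with ATRA but did not pass the test. Both had passed the count filter through the control libraries alone, so they had to be lower with ATRA. Hist3h2ba, a neighbour of Hist3h2a (chromosome 11 from 58948920 to 58949533, plus strand, GC content 57.2%), had 33 and 27 counts in the controls and 6 and 0 with ATRA. That is 1.03 and 1.20 against 0.424 and 0 CPM, 4.39-fold lower by counts (95% counting interval 1.90 to 12.4). Its fitted log2 fold change was −2.17 ± 0.89 (edgeR adjusted p = 0.126), −0.95 ± 0.75 after GC correction (adjusted p = 0.395) and −1.37 without ATRA replicate 2. Hist1h2bl (chromosome 13 from 21715763 to 21716143, minus strand, GC content 63.3%) had 21 and 13 counts in the controls and 1 and 0 with ATRA. The summed counts put it 14.9-fold lower (counting interval 2.50 to 606). The fitted value was −3.71 ± 0.95 (edgeR adjusted p = 0.0808) and −1.92 ± 1.07 after GC correction (adjusted p = 0.237), and only 17.2% of its 50-base windows are found in no other gene. Without ATRA replicate 1 the fitted values were −7.58 for Hist3h2ba and −6.75 for Hist1h2bl. Each rested on a count of 0 in the remaining ATRA library.

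The 15 untested H2B genes summed to 94 and 58 counts in the controls and 14 and 14 with ATRA, or 2.95 and 2.58 against 0.990 and 1.44 CPM. Their groups did not overlap, where 41.5% of all genes tested, taken singly, were also lower without overlap. After GC correction (2.25 and 1.94 against 1.08 and 1.99 CPM) the groups of these H2B genes overlapped. Of the 8 with at least 10 counts, 6 were lower with ATRA and 2 higher by summed counts, and the genes named here were chosen after their values were seen. Hist2h2bb had 10 and 12 counts in the controls against 2 and 0 after ATRA, 4.83-fold lower (counting interval 1.19 to 42.3). Hist1h2bp had 26 against 4 counts, and its interval, 0.989 to 11.2 around a 2.85-fold lower level, includes no difference. The same holds for Hist1h2bj (2.63-fold lower, 0.768 to 13.9) and Hist1h2bk (2.19-fold lower, 0.620 to 11.8). Hist1h2be, with 16, 4, 4 and 5 counts, was 1.03-fold higher (0.411 to 2.36) and Hist1h2bg 1.30-fold higher (0.280 to 5.12). Hist1h2ba, the testis H2B, had 2 counts, both in control replicate 1, as did the pseudogene Hist3h2bb-ps.

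**Figure D4:**
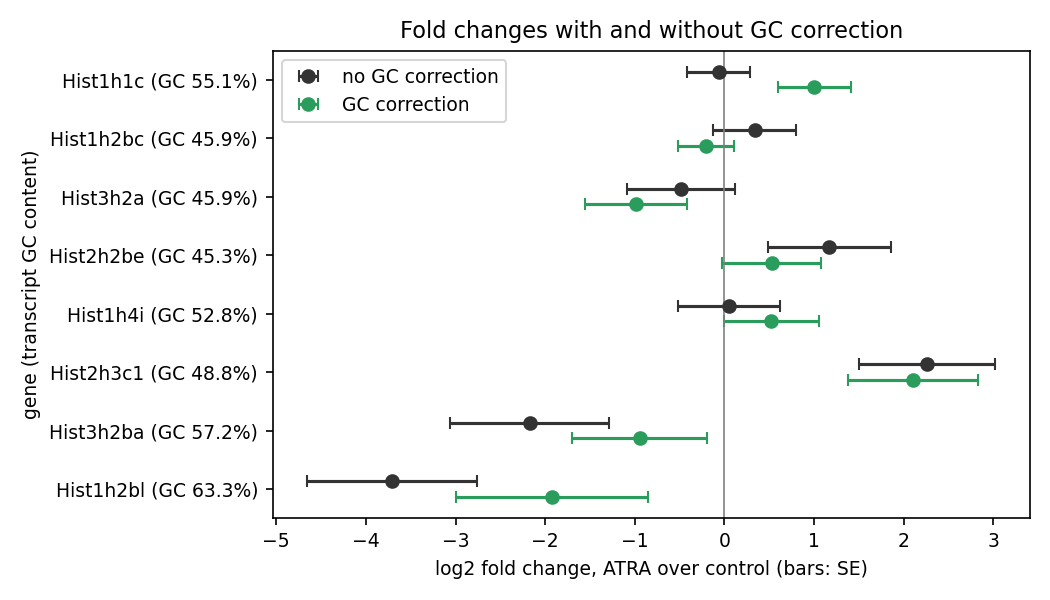
Log2 fold change of ATRA over control with its SE for the 8 tested histone cluster genes, in edgeR without (black) and with (green) the per-library GC correction; GC content stands beside each name. Hist3h2ba moves from −2.17 to −0.95, Hist1h2bl from −3.71 to −1.92 and Hist1h1c from −0.06 to 1.01, while Hist2h3c1 stays near 2 at 2.27 and 2.10.

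Among H3 genes, Hist2h3c1 was the tested one (chromosome 3 from 96246685 to 96248509, plus strand, GC content 48.8%). It had 9 and 7 counts in the controls and 9 and 23 with ATRA, or 0.282 and 0.312 against 0.636 and 2.37 CPM. Both ATRA libraries were above both controls, which was fixed once the gene had passed the count filter through the ATRA libraries alone. The summed counts put it 4.56-fold higher (counting interval 2.43 to 8.90). The log2 fold change was 2.27 ± 0.76 (edgeR adjusted p = 0.0977) and kept its size after GC correction, at 2.10 ± 0.73 (adjusted p = 0.0977). It was 1.11 without ATRA replicate 2 (edgeR adjusted p = 0.317) and 2.97 without ATRA replicate 1 (edgeR adjusted p = 0.00157). Gm20634 overlaps the gene on the same strand, so that no 50-base window of the transcript is its own; with that overlap left aside, 65.3% of windows are found in no other gene. Its reads are therefore uncertain. Its neighbour and paralog Hist2h3c2 had 1, 5, 2 and 4 counts. The other 11 H3 genes summed to 1.38 and 1.34 CPM in the controls and 0.424 and 0.722 CPM with ATRA. These groups did not overlap, where 41.5% of all genes tested, taken singly, were also lower without overlap. After GC correction (0.821 and 0.846 against 0.473 and 1.79 CPM) the groups of these H3 genes overlapped.

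H4 transcripts came mainly from Hist1h4i (chromosome 13 from 22040636 to 22041362, minus strand). It had 1.54 and 0.668 CPM in the controls and 1.27 and 1.03 CPM with ATRA, both ATRA values between the controls. Its log2 fold change was 0.05 ± 0.57 (edgeR adjusted p = 0.950) and 0.52 after GC correction (adjusted p = 0.503). The other 12 H4 genes, none of them tested, had 44 counts in control replicate 1, 6 in control replicate 2, 1 in ATRA replicate 1 and 0 in ATRA replicate 2. Their summed level was 1.38, 0.267, 0.0707 and 0 CPM. Control replicate 1 was thus above the other control as well as above both ATRA libraries. The groups did not overlap, also after GC correction (1.00, 0.221, 0.0678 and 0 CPM). Of all genes tested, taken singly, 41.5% were lower without overlap before correction, and no such share was taken after it. Hist1h4n and Hist2h4, singled out after their values were seen, had 10 and 6 counts in control replicate 1 and 0 in each other library. Hist4h4 had 2, 1, 1 and 0 counts.

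**Figure D5:**
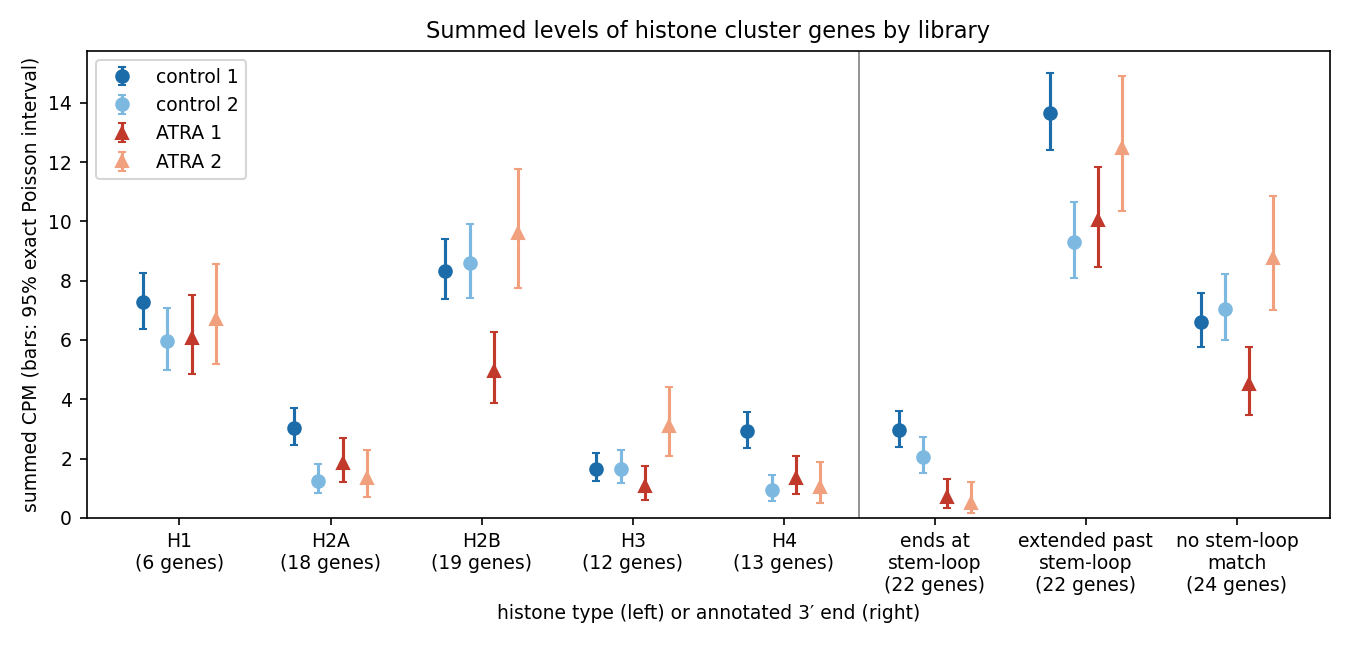
Summed CPM of the histone cluster genes in each library by histone type (left) and by annotated 3′ end (right), with 95% exact Poisson intervals that cover counting error only. For the types the 2 groups overlap in H1, H2A, H2B, H3 and H4, and on the right they separate only for the 22 genes ending at the stem-loop.

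The 60 untested genes held 256 and 128 counts in the controls and 51 and 34 with ATRA, or 8.02 and 5.70 against 3.60 and 3.51 CPM, with no overlap of the groups. Of all genes tested, taken singly, 41.5% were lower without overlap before GC correction. After GC correction the sums of the 60 genes were 5.92 and 4.16 against 3.86 and 5.81 CPM, and the groups overlapped. The 22 genes whose transcripts end at the stem-loop, with a median GC content of 60.2%, summed to 2.95 and 2.05 CPM in the controls against 0.707 and 0.516 CPM with ATRA. Corrected, they were at 1.65 and 1.34 against 0.835 and 1.22 CPM, so both ATRA libraries stayed below both controls, with a narrower gap. The 22 genes that run past it, with a median GC content of 50.3%, had 13.7 and 9.31 against 10.04 and 12.5 CPM, and overlapped. Hist1h2bb and Hist1h3g, singled out after their values were seen, had among the lowest ATRA counts for their control counts. Hist1h2bb, an H2B gene, had 7 and 10 counts in the controls and none in either ATRA library, at least 2.49-fold lower when the ATRA group is set to a floor of 3 counts in all. Hist1h3g had 16 and 11 counts in the controls, 1 in ATRA replicate 1 and 0 in ATRA replicate 2, which is 11.8-fold lower (counting interval 1.95 to 485). With no count filter, edgeR tested 60 of the 68 genes and called 0, where 14.9% of all 18882 genes were called. At an unadjusted p under 0.05 it held 1 of the 60 higher and 4 lower, against 14.6% and 20.7% of all genes.

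Replication-independent histone genes mostly supply variants outside S phase, from ordinary polyadenylated mRNAs. Those listed ranged from 0 counts in all 4 libraries for H2afb1, and 2 counts for H1foo, to 394 CPM per kilobase for H3f3b. Of the 13 listed, 10 were above Hist1h1c per kilobase, and H1fx was below it at 2.70. Of 11 tested, 0 rose or fell (0.603% of all genes called); after GC correction 2 rose and 1 fell, against 8.84% and 7.83% of all genes. H3f3b had 751 ± 31.5 CPM in the controls and 1228 ± 422 CPM with ATRA (SD, n = 2), or 0.71 ± 0.33 as log2 fold change (edgeR adjusted p = 0.160; −0.08 after GC correction). H3f3a, the second gene of the same variant, was at 0.81 ± 0.30 (edgeR adjusted p = 0.112; 0.02 corrected). Both have processed copies in the genome, so some of their reads are uncertain. H2afz, the H2A.Z gene, was at 0.46 ± 0.38 (adjusted p = 0.369; 0.25 corrected). The 2 that rose after correction were H1f0, the H1 gene known for accumulating in differentiated cells (0.95 ± 0.13, adjusted p = 0.0168, against 0.59 uncorrected), and H2afy2, a macroH2A gene (1.49 ± 0.26, adjusted p = 0.0259, against 0.61). H2afv, a second H2A.Z gene, fell (−1.72 ± 0.41, adjusted p = 0.0468, against −1.42), in edgeR with n = 2 per group. Without control replicate 1 or without control replicate 2 the corrected folds were 0.92 and 0.95 for H1f0, 1.498 and 1.470 for H2afy2 and −1.66 and −1.79 for H2afv. None was called in these fits. Without ATRA replicate 1 the corrected folds were 1.08 for H1f0, 1.83 for H2afy2 and −2.54 for H2afv. Without ATRA replicate 2 they were 0.82, 1.10 and −1.20 in that order.

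Of 21 genes in the tables that act in histone mRNA transcription and processing, 20 were tested, and 0 rose and 0 fell in either fit. Over all genes 0.603% were called without GC correction and 16.7% with it. Rnu7, which encodes the U7 RNA of histone 3′ end processing, had 0 counts in all 4 libraries. Slbp, which encodes the stem-loop binding protein, had 144 ± 3.13 CPM in the controls and 231 ± 59.8 CPM with ATRA (log2 fold change 0.68 ± 0.29, edgeR adjusted p = 0.138; 0.30 corrected). Npat, the coactivator that switches on cluster genes downstream of cyclin E and CDK2, was at 0.99 ± 0.37 (adjusted p = 0.110; −0.004 corrected). Srrt, which encodes a cap-binding complex partner and had the highest mean CPM of the list over the 4 libraries, though not with ATRA alone, was at −1.38 ± 0.40 (adjusted p = 0.0869; −0.29 corrected). Of 26 chaperones and assembly factors 0 rose or fell (0.603% of all genes called). After GC correction 2 fell (7.83% of all genes): Cabin1, a HIRA complex subunit (−0.46, adjusted p = 0.0469), and Ipo4, an importin that carries histones (−0.57, adjusted p = 0.0469). Nasp, a chaperone that holds soluble H3 and H4 and the most abundant gene here, was at 0.61 ± 0.31 (adjusted p = 0.182; 0.03 corrected). Of 32 S phase and G1/S genes 1 rose and 0 fell, against 0.435% and 0.168% of all genes. It was Ccnd2, a D-type cyclin, which rose from 45.4 ± 1.07 to 242 ± 10.1 CPM (2.42 ± 0.26, adjusted p = 0.0410, and 2.07 corrected). Its call was lost without either control library (adjusted p = 0.170 and 0.0833). After GC correction Ccnd2 rose, and the cyclin gene Ccnd1 (−0.77) and the thymidine kinase gene Tk1 (−1.32) fell, 3 of 32 called against 16.7% of all genes. Without control replicate 1 or without control replicate 2, corrected folds stayed near these (Ccnd1 −0.70 and −0.87, Tk1 −1.31 and −1.38, Cabin1 −0.53 and −0.41, Ipo4 −0.60 and −0.57). None of these 4 was called in these fits. Without ATRA replicate 1 the corrected folds were −0.66 for Ccnd1, −1.70 for Tk1, −0.44 for Cabin1 and −0.75 for Ipo4. Without ATRA replicate 2 they were −0.87, −1.08, −0.47 and −0.42 in that order. All tests in this paragraph are edgeR's with n = 2 per group. The medians of these 3 lists were 0.10, 0.08 and 0.06 uncorrected and −0.06, 0.01 and −0.04 corrected.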

How the data were processed

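The authors deposited 1 table per library with raw read counts by gene symbol. HTSeq 0.6.0, TopHat2 2.0.7, Cuffdiff 2.0.2, Cufflinks 2.0.2 and mm10 stand in the submitters' processing notes, with no role or order; the annotation and the strand setting used are not given in the sources here. Groups and replicate numbers come from the titles; a treatment label gives millimolar where titles and protocol give micromolar, and the titles were followed. Reads in no annotated gene made up 63.4% to 66.2% of counted reads and ambiguous ones 0.158% to 0.254%; these summary lines were left out.

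All genes were fitted with edgeR 4.0.16 in R 4.3.3 (default expression filter, TMM, robust quasi-likelihood F test, Benjamini-Hochberg, threshold 0.05); SE is the absolute log2 fold change over the root of the F statistic, and CPM uses TMM-scaled sizes. The filter asked for 0.574 CPM in 2 libraries. DESeq2 1.42.0 was an alternative. The GC correction fitted each library's deviation in log2 CPM (prior count 2) on transcript GC content by robust regression (MASS 7.3.60.0.1, natural spline of 5 degrees of freedom), entered as offsets; GC beyond the 1st and 99th percentiles was held there, which touched 16 of the 68 genes. The scripts were tested on simulated counts. All 68 symbols matched GENCODE M21 directly.

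Genes, lists and alternatives were chosen with earlier results of these data known. Named were the 3 most abundant and the extreme tested genes of each type, called genes, testis genes, Hist3h and Hist4h genes, and in the other lists up to 3 called genes by p, or, with none called, the most abundant, with H3f3a, H3f3b, H2afz, Slbp and Npat. Others were named after their values were seen. Protein sequences were not used here.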

Additional observations from a re-analysis of the deposited data

How the results depend on the processing

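With 2 libraries per group, few counts per gene and differences between libraries along GC content, the number of genes called was unstable. On all 4 libraries without the block, 0 of the histone cluster genes tested was called, but few could be tested. These were 8 under DESeq2's size factors, DESeq2's test and GC correction with or without length. A filter of 5 CPM left 1, and no count filter, with or without GC correction, left 60 of the 68. Shares called of all genes tested were 14.9% with no filter, 30.5% with DESeq2's test and 16.7% with GC correction. Over all genes, 86 were called, against 156 with DESeq2's size factors, 2807 with no count filter, 28 with a filter of 5 CPM, 4350 with DESeq2's test, 2376 with GC correction, 2291 with GC and length correction and 3031 with GC correction and no filter, the last chosen after seeing the data. Leaving out 1 library, with and without GC correction, gave 21 to 10952. A fit that leaves an arm with 1 library assumes that it varies like the other group.

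In the same runs, with and without GC correction, all genes were called at a higher rate than histone cluster genes. The latter were called only without ATRA replicate 1. With no count filter, which let in genes with few counts, their median log2 fold change moved from −0.01 to −1.78, and to −1.32 with GC correction. That of H1 was 1.01 with GC correction and 1.07 with length added. It was 0.97 with GC correction and no filter, and −0.04 with no filter alone. With 1 library left out it ranged from 0.61 to 1.16 with GC correction and from −0.21 to 0.08 without. That of H2A then ranged from −1.49 to 0.36 with GC correction and from −0.98 to 0.34 without. H2B was at −0.92, at −1.72 with no filter, at −0.57 with GC correction and at −0.40 with length added. With 1 library left out it ranged from −3.50 to 0.45 without GC correction and from −3.05 to −0.11 with it. The H3 value of 2.27 was that of Hist2h3c1 alone. With no filter, over more H3 genes, the median was −1.29, and −1.28 with GC correction added. With 1 library left out, the H3 median ranged from −1.73 to 2.35 without GC correction and from −1.72 to 2.17 with it. Some of these fits took in other H3 genes. Hist2h3c1 itself ranged from 1.11 to 2.97 without GC correction and from 1.01 to 2.81 with it. The H4 value of 0.05 was that of Hist1h4i alone, and was 0.73 with GC and length correction. With no filter, over more H4 genes, the median was −3.42, and −3.28 with GC correction added. Of the 13 H4 genes, 11 had 0 counts in both ATRA libraries, which were sequenced less deeply. These medians therefore rest on counts at the floor, and their size is uncertain. With 1 library left out the H4 value ranged from −0.41 to 0.77 without GC correction and from 0.078 to 1.25 with it. H2A, H2B, H3 and H4 had no value under the filter of 5 CPM, which left Hist1h1c alone.

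Of single genes, log2 fold changes that reversed under GC correction, GC and length correction, and GC correction with no filter were 1.01, 1.07 and 1.01 for Hist1h1c, −0.20, −0.043 and −0.20 for Hist1h2bc, −0.078, −0.056 and −0.080 for H3f3b, and −0.0041, −0.071 and −0.0055 for Npat. Hist1h4i was at −0.00076 with no filter. The leave-one-out ranges given next pool runs with and without GC correction. They spanned 0 for Hist1h1c (−0.21 to 1.55), Hist1h2bc (−0.53 to 0.76), Hist1h4i (−0.41 to 1.25), Hist2h2be (−0.32 to 1.86) and Hist3h2a (−1.49 to 0.34). The same held for H3f3a (−0.042 to 1.06), H3f3b (−0.14 to 1.01), H2afz (−0.22 to 0.86), Nasp (−0.031 to 0.86) and Npat (−0.073 to 1.36). Taken apart, H3f3b spanned 0 in neither kind of run (0.32 to 1.01 without GC correction, −0.14 to −0.028 with it). Hist1h1c, Hist1h4i and Hist3h2a spanned 0 only without GC correction. Hist2h2be, H3f3a, Nasp and Npat did so only with GC correction, and Hist1h2bc and H2afz in both.

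Genes called among the replication-independent histone genes numbered 3 with no filter, 3 with DESeq2, 3 with GC correction, 2 with length added and 2 with GC correction and no filter, and 0 to 10 when 1 library was left out. Of the processing and transcription factors, 5 were called with no filter and 10 with DESeq2 (leave-one-out 0 to 20). Of the chaperones the numbers were 4, 8, 2, 1 and 3 with no filter, DESeq2, GC correction, length added, and GC correction with no filter (0 to 21), and of the S phase genes, where 1 was called at first, 7, 11, 3, 3 and 4 (0 to 27). The 7 retinoic acid response genes called ranged from 5 to 8. Over all genes tested, 0.603% were called at first, 14.9% with no filter, 30.5% with DESeq2 and 16.7% with GC correction. Outside the retinoic acid list, the highest leave-one-out numbers came from the fit without ATRA replicate 1. Most of all genes tested were called in that fit too. Apart from the count filters, the cause of these shifts in the numbers called was not tested.

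Replicate numbers shared between the groups do not show a pairing: the labels tie them to no culture or batch, and deviations of same-numbered libraries correlated at 0.183 over genes, and −0.0461 after GC correction, with 2 pairs only. With the replicate number as a block edgeR called 4212 of 14256 genes (29.5%). Among them were 1 of the 8 tested histone cluster genes higher (Hist2h3c1) and 2 lower (Hist1h2bl and Hist3h2ba). The other lists had 3 replication-independent histone genes, 7 processing factors, 5 chaperones and 10 S phase genes called. The block with GC correction called 2999 of 14256 genes, 0 histone cluster genes and 4, 2, 2 and 6 genes of those lists. In this fit the median of H1, which is Hist1h1c, was 0.97, that of H2B −0.60, and Hist1h2bc was at −0.23, H3f3b at −0.078 and Npat at −0.0033.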
